A study of Caenorhabditis elegans with 4 samples.

Results

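The left arm of chromosome III of *Caenorhabditis elegans* was examined for sites bound by T09A5.8, which the gene table of assembly WBcel235 names *cec-3*. The arm was taken as the first of 3 equal parts of the chromosome, and its sites are all peaks of the whole-series list on III whose midpoint lies at or below position 4594582 (WormBase WS220). The members were thus chosen by position alone, and there are 1478 of them among 14075 peaks in all. In the same interval lie 390 of the 3666 peaks of ChIP replicate 1 and 387 of the 3867 peaks of ChIP replicate 2. The last member inside the limit spans 4506212 to 4506456 and the first peak outside it spans 4600492 to 4602443, so no whole-series peak touches the limit itself.

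CEC-3 has a chromodomain, a fold that recognises methylated histones, and binds the lysine 9 methylation of histone H3 found in heterochromatin. Worm chromosomes are holocentric, and this mark and repeated sequence are concentrated toward their ends, in the arms, while broadly expressed genes gather in the centres. A list of CEC-3 peaks gives where the protein was called as bound, and the histone marks there were not measured. How far a bound stretch seems to reach depends on how the list was called.

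Chromatin came from young adult hermaphrodites of the strain *fem-2(b245)*, all of which carry this allele of a gene on III, were grown at 20 °C and contained a germline. *fem-2* encodes a protein phosphatase of the sex determination pathway and is needed for sperm formation. Whole animals were ground and fixed in 1% formaldehyde for 10 min, so germline and body cells were measured together, and how many cells carry a site and how strongly each is bound cannot be told apart. The antibody was an affinity-purified rabbit polyclonal raised against part of T09A5.8. The series holds 2 ChIP and 2 input DNA samples, no wild-type animals and no animals lacking the protein, and no label says whether replicates came from separate cultures. The input samples have no peak list here, and the lists carry no read counts, so the depth behind each peak is unknown.

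CEC-3 peaks filled about the same share of the arm in each list, although the lists cut it up differently. Peaks of replicate 1 covered 35.0% of its bases, peaks of replicate 2 covered 34.0% and whole-series peaks 34.2%. Over all chromosomes the values were 12.4%, 12.6% and 12.8%. Similar totals did not mean the same bases on the arm. Peaks of both replicates covered 199.0 kb that no whole-series peak covered, and whole-series peaks covered 187.3 kb that neither replicate did. Bases in all 3 lists made up 78.3% of those of the whole-series list. The arm makes up 4.58% of the length of the chromosomes and held 10.6%, 10.01% and 10.5% of the peaks of the 3 lists, in the same order. Replicate 1 had 84.9 peaks per Mb, replicate 2 had 84.2 and the whole-series list, with its narrower peaks, had 321.7. The median width was 413 bp for the members, 2435 bp for the peaks of replicate 1 and 2285 bp for those of replicate 2. Peaks under 500 bp numbered 841 of the 1478 members, and the replicate lists held no peak that narrow, their shortest on the arm being 672 and 645 bp.

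Each peak carries a score given by the authors' caller, with no statement of its scale, and the scores of the whole-series list and of the replicate lists are on different scales. Members had scores from 1.31 to 143.52 with a median of 7.47, and the median over all whole-series peaks was 6.72. In the replicate lists scores pile up at 3100. On this arm 85 peaks of replicate 1, or 21.8%, and 101 of replicate 2, or 26.1%, scored 3100 or more, beside 12.8% and 14.9% of all peaks of those lists. Wide peaks scored higher: across the members, width and score had a Spearman's rho of 0.780, and across the replicate peaks of the arm it was 0.876 and 0.851. These are descriptions over peaks of the same libraries, which are not independent.

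Binding was not even along the arm: it was heavy from the chromosome end to about 3.4 Mb and sparse from there to the centre. Coverage was highest between 1 and 2 Mb, with 52.0% of bases in each replicate, while the whole-series list had 59.1%. Only in this piece did the whole-series list lie above the replicates. It includes a stretch, described below, with 96.7 kb of whole-series peaks and no replicate peak. In the first Mb coverage was 42.9% for replicate 1, 39.4% for replicate 2 and 38.3% for the whole-series list. Between 2 and 3 Mb the values were 41.0%, 39.2% and 37.4% in the same order, and between 3 and 4 Mb they were 21.9%, 22.6% and 19.6%. The last piece, from 4 Mb to the limit, was 4.94%, 5.46% and 4.61% covered. The lower coverage toward the centre was thus present in all 3 lists, and the replicates lay closer to each other than neighbouring pieces did.

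In bins of 200 kb the heavy part broke up into blocks separated by thinner stretches. The bins from 0.2 to 0.4 Mb, from 1 to 1.2 Mb and from 1.8 to 2 Mb were the fullest in the replicates, with means of 65.4 ± 5.16%, 73.3 ± 3.41% and 79.1 ± 3.58% of bases (SD, n = 2). Between them, the bin from 0.6 to 0.8 Mb had 18.4 ± 2.58% (SD, n = 2). By the mean of the replicates, 5 of the 23 bins were over 50% covered and 5 under 10%, and the replicates never differed by more than 7.65 percentage points in a bin. The bin at the chromosome end held the most peaks, 130 members, with a median width of 379 bp, a median score of 6 and a highest score of 46.62. The first member there spans positions 98 to 243 and was found in both replicates. The fullest bin of all, from 1.8 to 2 Mb, held 66 members with a median width of 807.5 bp and a highest score of 135.97.

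Split at 3.4 Mb, a limit read off these bins after they were seen, the outer part held 1376 members and the inner 102. Replicate peak density was 105.0 and 103.5 per Mb in the outer part and 27.6 and 29.3 per Mb in the inner, in replicate 1 and replicate 2. The mean ratio of the replicates was 3.67 and that of the whole-series list 4.74, and since the limit came from the same peaks the ratio is a description with no test. Coverage was 44.1 ± 0.950% outside and 7.08 ± 0.141% inside (SD, n = 2), and the centre of III, beyond the arm, had 5.44 ± 0.375% (SD, n = 2). By coverage the inner piece of the arm thus lay nearer to the centre than to the rest of the arm. The peaks themselves differed less than their number: the median width was 415.5 bp outside and 386 bp inside, and the median score 7.47 and 6.93. The inner part had no member wider than 5573 bp or scoring above 57.06, and it held the 3 widest stretches of the arm with no member. These run from 4336025 to 4451636 (115.6 kb), from 4089421 to 4187512 (98.1 kb) and from 3541913 to 3618947 (77.0 kb), and no replicate peak lies wholly inside any of them.

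The arm was denser than the right arm of the same chromosome in every list. Replicate 1 had 390 peaks on the left and 265 on the right, replicate 2 had 387 and 272, and the whole-series list had 1478 and 897. The fold was 1.47, 1.42 and 1.65 in that order. Two-sided exact binomial tests gave p-values, adjusted by Benjamini-Hochberg over the 3 lists, of 1.8e-06, 8.5e-06 and 1.7e-32. Each peak entered these tests as a separate draw, but peaks lie in clusters, so the p-values are likely too small. On the left arm 61.1% of the gaps between neighbouring members were 500 bp or less. No conclusion about the arms is drawn from these p-values. An exact sign-flip permutation test over the 2 replicates cannot go below p = 0.5. The mean log2 ratio of the replicates was 0.53, and 0.84 among the better-scoring 50% of each list. In bases the arms stood further apart, with 34.5 ± 0.667% covered on the left and 15.3 ± 0.140% on the right (SD, n = 2). The right arm also had 7 domains of 10 kb or more against 38 on the left (a domain being a run of whole-series peaks with gaps of 500 bp or less).

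When each of the 6 chromosomes was cut into 3 equal parts, the left arm of III had rank 2 among the 18 parts in replicate peak density and in covered bases. The right arm of I was first, with 95.1 ± 1.69 peaks per Mb and 35.9 ± 1.38% of bases (SD, n = 2). In bases these arms were not separated by the replicates: the left arm of III had 34.98% in replicate 1, and the right arm of I had 34.90% there and 36.9% in replicate 2. The right arm of V followed with 27.8 ± 1.00% (SD, n = 2), but it had 35.6% in the whole-series list, above the 34.2% of the left arm of III, so by covered bases rank 2 holds for the replicates and not for that list, where it is 3. By peak density it is 2 in that list too.

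**Figure D1:**
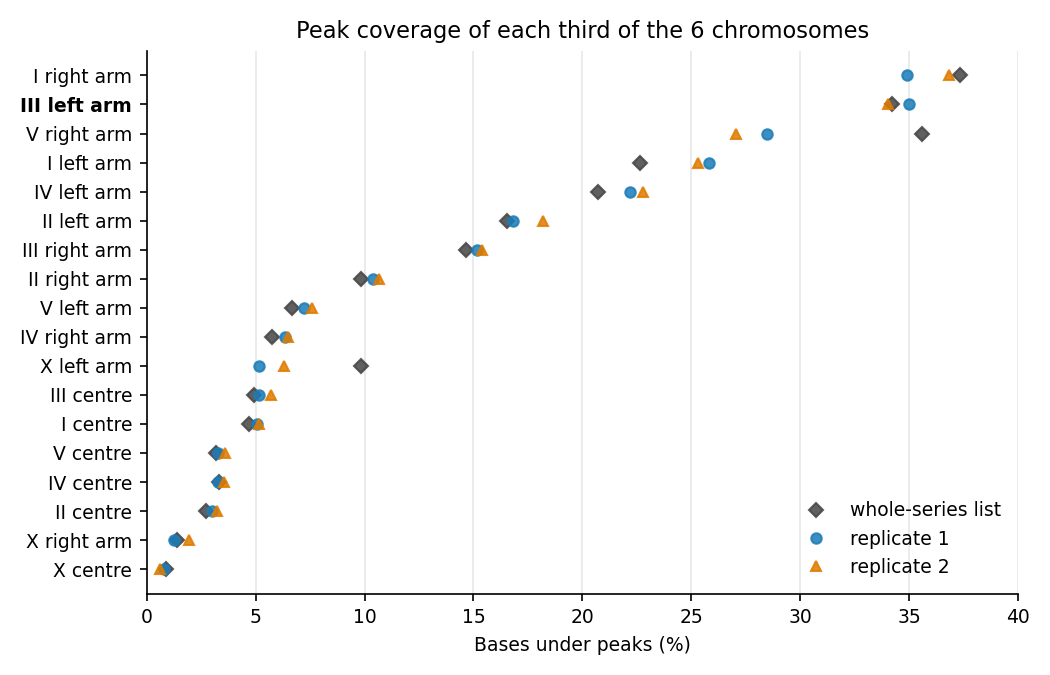
Percent of bases under peaks in each of 3 equal parts of every chromosome, one row per part, with a symbol for each list; the left arm of III is in bold. It lies at 34.0 to 35.0% in the 3 lists, beside the right arm of I and above every other part in the replicates.

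Most members overlapped a replicate peak, and those that did not were mostly small. How the replicates enter the whole-series list is not stated, so the lists may share reads and their overlap is not independent support. A wide peak also meets another more easily. A peak of both replicates overlapped 894 of the 1478 members by at least 1 bp, or 60.5% (95% Wilson interval 58.0 to 62.9%, counting error only). Over all whole-series peaks 53.8% did. Replicate 1 alone overlapped 170 members, 11.5% beside 8.47% of all peaks, and replicate 2 alone 121, 8.19% beside 10.7%. The remaining 293 members, 19.8% beside 27% of all peaks, met neither replicate. Among the 18 parts the left arm of III had the highest share of peaks in both. The right arm of I with 59.7%, the centre of II with 58.9% and the left arm of I with 58.5% lie within the interval given above. Members in both replicates had medians of 10.9 for score and 715 bp for width, and they made up 79.7% of the members' bases. Members in neither had medians of 4.55 and 219 bp, and those in replicate 1 or replicate 2 alone had medians of 4.99 and 6 for score and 258.5 and 301 bp for width.

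The share of members that overlapped a peak of both replicates was larger in each higher class of score. With limits that cut all whole-series peaks into 4 classes of about equal number, 106 of the 356 members scoring up to 4.35 were in both replicates, or 29.8%, beside 28.9% of all peaks of that class. From there to 6.72 it was 46.9% of 322 members beside 37.3%, and from there to 12.81 it was 66.0% of 347 beside 65.7%. Above 12.81 it was 90.1% of 453 members beside 85.2%. The left arm of III thus stood above all peaks mainly in the second and the fourth class, a difference that was not tested. The highest class also held 30.6% of the members.

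**Figure D2:**
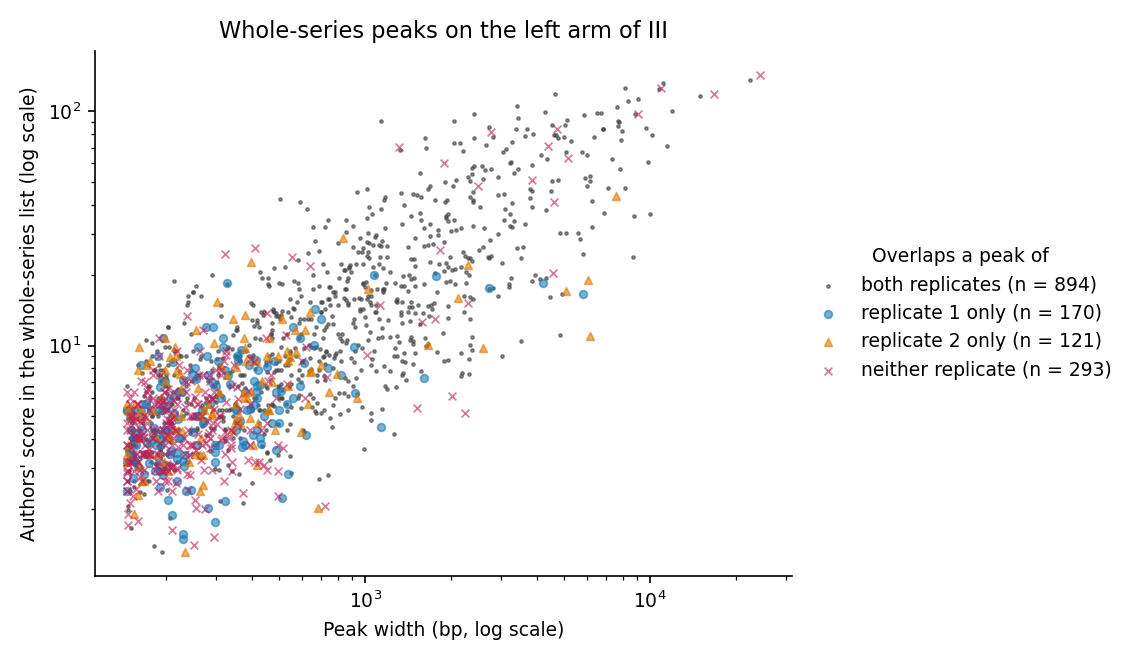
Score in the whole-series list against peak width in bp, both on log scales, for the 1478 members, with a symbol for the replicates whose peaks each member overlaps. Members in neither replicate (crosses) gather at low score and width, but a few lie among the widest and highest.

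The 10 highest-scoring members found in both replicates lie between 0.349 and 3.31 Mb, and 5 of them fall within 124.3 kb. The highest spans 1910714 to 1933021 and scored 135.97. It and the member at 1933051 to 1943821, with 125.21, fall inside a single peak of each replicate, 40457 bp wide in replicate 1 and 39940 bp in replicate 2, whose starts differ by 73 bp and whose ends differ by 590 bp. Just before it lie the members at 1819484 to 1827613 (score 126.13), 1860926 to 1865545 (118.76) and 1865674 to 1874024 (110.53). Near 1.1 Mb lie those at 1083749 to 1094839 (131.96) and 1064966 to 1079902 (116), and at 1216643 to 1224303 one with 104.2. Outside these groups are 348558 to 357611 (113.43) and 3309022 to 3312416 (105.12), the latter only 3395 bp wide. The replicates covered at least 96.8% of each of the 10, and every overlapping replicate peak carries the score of 3100, so the replicate scores give them no order.

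The highest-scoring member of all was found in neither replicate. It spans 1484568 to 1508928, is 24361 bp wide and scored 143.52. The next members found in neither lie beside it, at 1514535 to 1525417 (125.89), 1526275 to 1542951 (118.3), 1558691 to 1567727 (97.16) and 1548881 to 1553593 (84.25). All 5 fall in a stretch of 119.25 kb in replicate 1 and 119.09 kb in replicate 2 that holds no replicate peak. The whole-series list covered 81.1% of it with 23 members, with medians of 48.05 for score and 1887 bp for width. Those 23 make up 53.8% of all bases of members found in neither replicate. The other 270 had a median score of 4.35 and a highest of 21.95, and their median width was 213 bp. The members in neither replicate thus comprised 23 peaks of one stretch and 270 elsewhere on the arm, most of them narrow.

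On both sides of that stretch the replicates matched each other and the whole-series list closely. The nearest peak on the left spans 1448128 to 1449103 in replicate 1 and 1448144 to 1449069 in replicate 2, with scores of 79.1 and 51.69. On the right it spans 1568354 to 1581126 and 1568157 to 1581150, with scores of 2075 and 3100. The starts of the stretch thus differed by 34 bp between the replicates and its ends by 197 bp. Why the replicate lists hold no peak there was not tested.

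**Figure D3:**
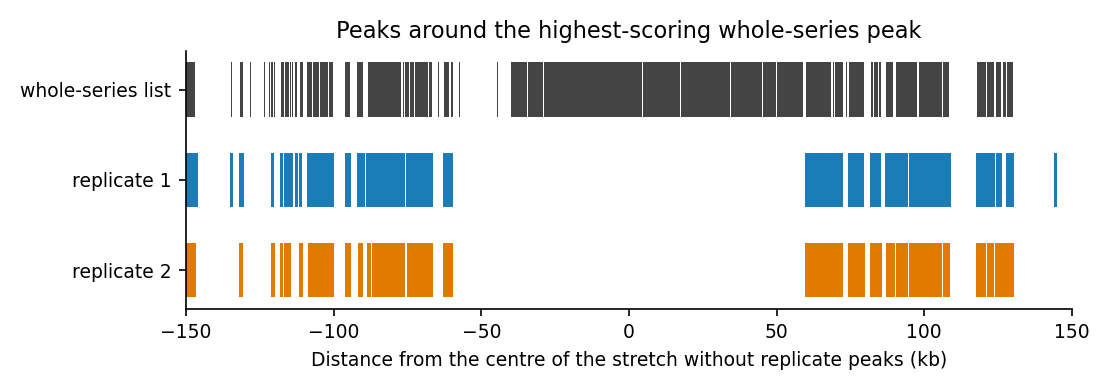
Peaks of the 3 lists as bars drawn to scale, against the distance in kb from the centre of the stretch without replicate peaks. The whole-series bars run on through the middle of the window, where both replicate rows are empty, and the rows largely match on either side.

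To see how far bound chromatin reached, members were joined into domains wherever the gap between them was 500 bp or less. Such gaps made up 61.1% of the gaps between neighbouring members, beside 54.9% over all chromosomes, and the median of all gaps on the arm was 292 bp. Joining gave 575 domains with a median width of 1035 bp, of which 264 were single peaks and the most divided held 22 peaks. Domains of 10 kb or more numbered 38, or 14.3% of the 265 on all chromosomes, and made up 41.5% of the domain bases. Their number depends on the joining, and was 24 when only gaps of up to 200 bp were joined and 55 with gaps of up to 1000 bp. The left arm of III had 8.27 such domains per Mb, rank 3 among the 18 parts, after the right arm of I with 12.5 and the right arm of V with 8.89.

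Wide domains were mostly covered from end to end in each replicate. Of the 38 domains of 10 kb or more, 28 were over 90% covered in both replicates, and the median was 99.4% in replicate 1 and 97.6% in replicate 2. The count over 90% was not taken over all chromosomes. For the 190 domains of 1 to 5 kb the medians were 100% and 98.7%, and for the 283 domains under 1 kb they were 0% in both. Coverage under 10% in both replicates was found for 2 of the 38, or 5.26%, beside 7.92% of such domains on all chromosomes. These are the domain at 1468827 to 1553593 and the next one, at 1554167 to 1567727, both in the stretch described above. With 84.8 kb the first is the widest domain of the arm, made of 18 members. Over all chromosomes such low coverage was more frequent among the widest domains. It was found for 1.99% of the 201 domains of 10 to 20 kb and 22% of the 50 of 20 to 40 kb. Above 40 kb it was found for 6 of 14, or 42.9%, so it is not particular to this arm.

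A further 3 wide domains were missing largely from at least one replicate, a count that was not taken over all chromosomes. The domain at 1961670 to 1982822, 21.2 kb wide with a highest member score of 43.65, was 0% covered in replicate 1 and 100% in replicate 2, where a single peak of 21563 bp with a score of 815.94 spans it. The domain at 200202 to 210588 was 97.1% covered in replicate 1 and 0% in replicate 2. The domain at 2465687 to 2480000 was 0% covered in replicate 1 and 14.9% in replicate 2. The other wide domains ran the same way in both: that at 1910714 to 1950585 (39.9 kb) was 100% and 99.4% covered, that at 1819074 to 1854376 (35.3 kb) 99.9% in each, and that at 2189768 to 2217072 (27.3 kb) 100% and 98.6%. The domain at 1857402 to 1908333 (50.9 kb) was 99.4% covered in replicate 1 and 79.9% in replicate 2. Part of the gap in replicate 2 corresponds to a peak that replicate 1 has alone, at 1881003 to 1890355, with a score of 134.49.

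**Figure D4:**
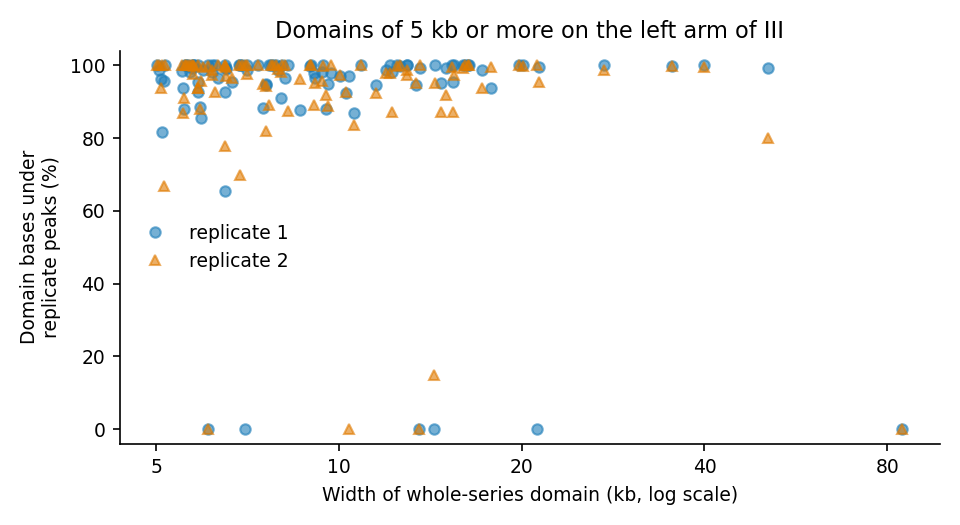
Percent of each domain's bases under replicate peaks against domain width in kb on a log scale, for the domains of 5 kb or more on the left arm of III, with a symbol for each replicate. Most points up to 40 kb lie near 100%. Of the 2 wider domains, that of 50.9 kb lies at 99.4% and 79.9%, and that of 84.8 kb at 0% in both replicates.

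The replicates placed most bound stretches alike, and the edges of peaks with a single partner lay close together. Of the 390 peaks of replicate 1 on the arm, 338 met one of replicate 2, or 86.7% (95% Wilson interval 82.9 to 89.7%), beside 89% over all chromosomes. Of the 387 of replicate 2, 352 met one of replicate 1, or 91.0% (87.7 to 93.4%), beside 85.3%. Over all chromosomes replicate 1 had the larger shared part, and on this arm replicate 2 had it, as it did on the right arm of V with 88.3% beside 86.7% for replicate 1. In 247 cases a peak met a single partner, and the edges of such pairs differed by a median of 87 bp, close to the 88 bp over all chromosomes. Edges of these pairs lay within 100 bp of each other in 55.1% of cases and over 1000 bp apart in 4.25%. Over all 383 overlapping pairs of the arm, where a peak of one replicate can meet several of the other, the median was 119 bp, and 44.0% lay within 100 bp and 21.3% over 1000 bp apart. The scores of the 247 pairs with a single partner had a Spearman's rho of 0.906, and 0.801 over the 185 of them in which neither peak reached 3100. Over the 383 pairs rho was 0.777. In the 185 pairs the score was higher in replicate 2 in 101, and the median log2 ratio of replicate 2 over replicate 1 was 0.13, against 0.32 over all chromosomes.

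Peaks that only one replicate had were narrow and low with few exceptions. The 52 unshared peaks of replicate 1 had a median score of 102.0, where the shared ones had 714.9, and their median width was 1166 bp beside 2834 bp. For the 35 of replicate 2 the medians were 124.4 beside 774.5 for score, and 1189 bp beside 2544 bp for width. The highest score of an unshared peak was 542.77 in replicate 1 and 1192.91 in replicate 2, each carried by a peak under 5 kb. At 5 kb or more there were 2 unshared peaks in each list. Replicate 2 alone had the peak at 1961456 to 1983018 named above and one at 504057 to 516600 with a score of 833.86, and replicate 1 alone had that at 1881003 to 1890355 and one at 204797 to 210882 with a score of 466.07.

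The widest replicate peaks of the arm were the same sites in both lists for the most part. After the peak at 1910488 described above, replicate 1 had peaks at 2189124 to 2217141, 1161880 to 1189872, 1857078 to 1880750 and 1021423 to 1043154. Replicate 2 had 1161975 to 1189919, 2190150 to 2217220, 1961456 to 1983018 and 1834040 to 1854671. The scores of a site could differ where its edges lay close: the peak at 1161880 to 1189872 scored 681.72 in replicate 1, and its partner at 1161975 to 1189919 scored 3100 in replicate 2. The peak at 2189124 scored 1056 in replicate 1 and its partner, at 2190150, scored 3100. Whole-series peaks covered 96.0% and 94.8% of these replicate 1 peaks, with 6 members each. At the level of bases, 1430 kb of the arm lay under peaks of both replicates, making up 89.0% of what replicate 1 covered there and 91.4% of what replicate 2 covered, and 1231 kb lay under peaks of all 3 lists.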

How the data were processed

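The authors deposited 3 peak lists in GFF3 format, and each peak has a start, an end and a score. Positions are on WormBase WS220, per the file headers, and reads were aligned with BWA to ce10, per the submitters' processing notes. Per the source column of the files, the replicate lists were made with MACS and the whole-series list with MACS v2. No source used here gives the control, the thresholds or the way replicates were combined for the whole-series list. No peak had the same start and end in both replicates. The 2 replicate lists were compared as 2 samples, and p-values measure counting error or a spread that may be technical.

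From the lists were computed peak counts, bases covered, overlaps of at least 1 bp, domains joined over gaps of up to 500 bp, 95% Wilson intervals and exact binomial tests. No filter was applied to the members. A chromosome was taken to end at the last base of its last peak in the 3 lists. The functions for overlap, coverage, domains and arm ratios were tested on simulated peaks. Named peaks are the 10 highest-scoring in both replicates, the 5 in neither, the 5 widest domains and replicate peaks, and the 3 widest gaps; others are named by their size or single-replicate status, chosen after their values were seen. The interval and the tests were chosen with earlier results of these data known. Gene coordinates at hand are of another build, so the sequence and genes under the peaks were not analysed here. The work used scipy 1.17.1, numpy 2.4.6, pandas 2.3.3 and matplotlib 3.10.9 under Python 3.11.15.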

Additional observations from a re-analysis of the deposited data

How the results depend on the processing

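Only the left-over-right log2 ratio was checked for a change of direction, and it kept its sign under every alternative that was run. Of the 44 alternatives over all results, 19 were counted as having moved the value, by rules that differed between results. For density, coverage and the outer-over-inner ratio a move was a change of at least the replicates' SD. For shares it was a value outside the Wilson interval, and for domain counts a change beyond a fixed fold. Left-over-right peak ratios counted as unmoved while binomial p-values stayed below a set limit. Both alternatives for rho counted as moved by default. The 19 thus measure no single kind of stability. Replicate peak density, 84.6 per Mb, was 92.4 in the left 30% of the chromosome, 94.8 in the left 4 Mb, 47.7 for the better-scoring 50% of the peaks, 321.7 for whole-series peaks, and 84.2 to 84.9 with either replicate left out. Coverage, 34.5%, was 37.9%, 38.9% and 28.5% under the first 3 of these, and 34.0 to 35.0% with either replicate left out. The left-over-right log2 ratio of III, 0.53, was 0.51 to 0.56 with either replicate left out, 0.84 for the better-scoring 50% and 1.18 when bases replaced peaks. The share of members in both replicates, 60.5%, was 56.9% under an overlap of 50% or more of the shorter peak, 69.4% with peaks widened by 250 bp and 61.4% without the stretch that lacks replicate peaks, an alternative chosen after seeing the data. Members that met replicate 2, whatever replicate 1 showed, made up 68.7%, and those that met replicate 1, whatever replicate 2 showed, 72.0%. Spearman's rho of the replicate scores, 0.906, was 0.777 over all overlapping pairs and 0.801 below the top score. Joining gaps of up to 200 bp gave 871 domains in place of 575, and 24 of 10 kb or more in place of 38, since fewer gaps are joined; gaps of up to 1000 bp gave 388 and 55. The outer-over-inner density ratio, 3.67, was 2.59 with the limit at 3.2 Mb, 4.60 at 3.6 Mb and 4.74 in the whole-series list, and 3.53 to 3.80 with either replicate left out. For the other moves the cause was not tested. The input samples have no peak list here. No paired analysis was possible because each replicate number then has a ChIP list alone. The test of genes and repeats under the peaks was not run, for lack of an annotation of WS220. Read counts are not part of the lists, so how depth limits them is unknown.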
